A study of Danio rerio with 10 samples.

Results

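The 5 control arrays of the study describe gene expression in the kidney marrow of zebrafish of the control genotype. They were chosen by their labels, as the 5 of 10 arrays of the control genotype, and the other 5 arrays, from fish overexpressing human CREB, were not used. Strain, age, sex and any agent given to the control fish are not given in the sources used here. The design text gives 5 animals per group, and each array held whole-tissue RNA labelled from 100 ng. That each array is 1 fish was inferred from 5 animals and 5 arrays, and is not stated in the labels. With 1 group there is no contrast and no test, so every value below is a description of these 5 fish, and their number limits the precision.

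In bony fish the kidney houses the adult blood-forming tissue. Red cells, granulocytes, macrophages, thrombocytes, lymphocytes and their progenitors mature between the renal tubules, as they do in the bone marrow of mammals. The organ also contains steroid-producing interrenal cells, the fish counterpart of the adrenal cortex, and it lies close to the gonads, the gut with its scattered pancreas, the liver and the body wall.

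Each array gave a log2 signal for 15502 zebrafish probe sets, of which 10795 carry a single gene symbol and represent 8793 genes. Array medians lay between 5.72 and 5.84. Across probe sets, which are not independent replicates, the correlation of array pairs (Pearson's r) ran from 0.878 for arrays 2 and 3 to 0.981 for arrays 1 and 2. Arrays 1, 2 and 4 resembled each other more than they resembled array 3. The difference between the 3′ and 5′ control probe sets of gapdh, a measure of RNA integrity and labelling, lay between 1.06 and 1.37 on the log2 scale on all 5 arrays. For the actin gene acta1 it was -1.21, -0.37, 0.18, -0.49 and -0.07 on arrays 1 to 5, lowest on array 1. These acta1 probe sets were dim, with means of 6.43 (3′) and 6.82 (5′), against 11.48 and 10.23 for gapdh. The acta1 difference therefore does not rank the arrays by RNA quality.

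The background was taken from Affymetrix control probe sets on the same arrays. The 17 probe sets for artificial tag sequences, which match no zebrafish transcript, had a median mean of 4.09 and a highest signal between 4.80 (array 3) and 5.35 (array 2). Of the 15502 probe sets, 7978 (51.5%) lay above the highest tag signal on all 5 arrays, 5053 on no array and 2471 on 1 to 4 arrays. Counted by gene, with the brightest probe set standing for each gene, 5529 of 8793 genes (62.9%) were above background on every array. Array 3 had the lowest tag threshold, the most probe sets above it (10088, against 8664 to 9191 elsewhere) and the dimmest hybridisation spikes, with a mean of 9.56 against 9.88 to 10.17. The spikes, added in equal amounts, had a median SD of 0.30 between arrays, and the tag probe sets one of 0.14. Those SDs give a spread from hybridisation to set beside that between arrays, and do not cover dissection or labelling. The poly-A controls, with a highest mean of 5.06, lay below the brightest tag mean and gave no measure of labelling.

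**Figure D1:**
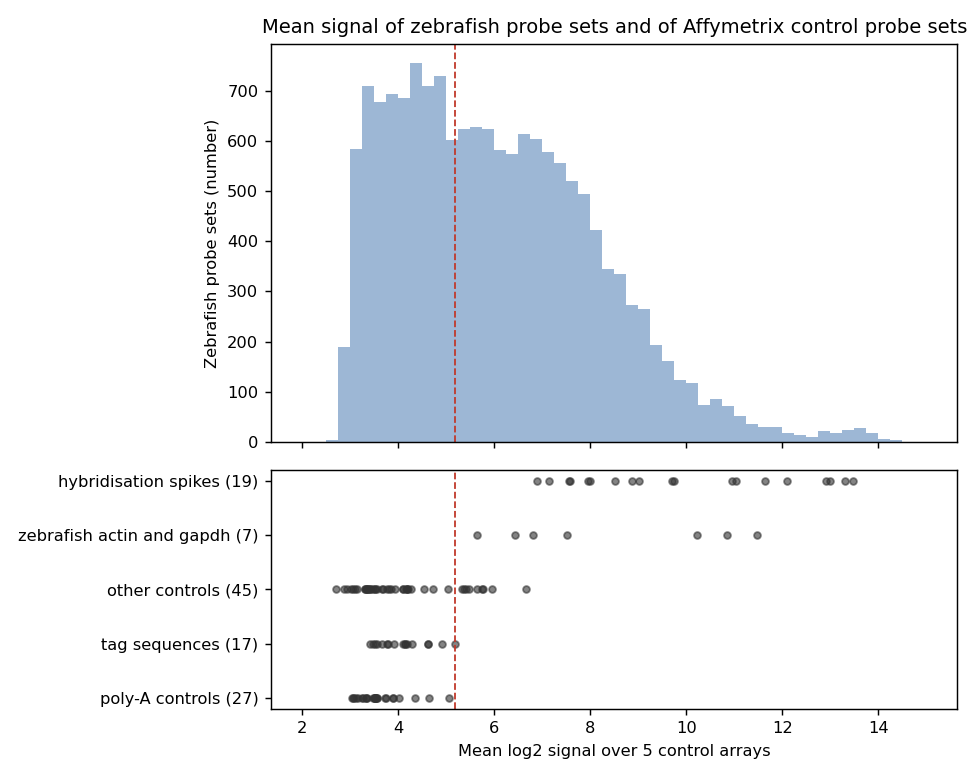
Upper panel, number of zebrafish probe sets by mean log2 signal over the 5 control arrays. Lower panel, the same mean for each of the 115 Affymetrix control probe sets by class (number in brackets). The dashed line marks the brightest tag sequence, at a mean of 5.18. Tag and poly-A controls sit at the dim end, and the hybridisation spikes span 6.89 to 13.46.

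Probe sets bind with different strength, so the rank by mean orders signals and not transcript amounts. Ribosomal protein transcripts made up most of the bright end. Of the 100 named probe sets with the highest mean, 67 measured genes of the cytosolic ribosomal protein list. That list, built from gene symbols, leaves out rpsa and rps27.1, which were also among the 100. The 100 probe sets represented 98 genes. The lowest mean among them was 12.78, and their median SD between arrays was 0.17, with 0.58 the highest. Over all probe sets the median SD was 0.16 at a mean of 13 or more and 0.33 between 12 and 13. The gapdh probe set, at a mean of 13.01, had an SD of 0.11. The dimmer Affymetrix control probe sets of gapdh, at means of 10.23 to 11.48, had SDs of 0.47 to 0.52. Whether signals near the top of the scale were compressed was not tested. None of them was among the 100 most variable probe sets. Just inside the limit of 100 stood hspa8, icn and rps26, and just outside it cd63, pfn1 and ubb.

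The brightest probe set measured hbaa1, the adult alpha-globin gene, at 14.48, 14.55, 14.34, 14.59 and 14.51 on arrays 1 to 5 (mean 14.50 ± 0.09, SD, n = 5). The mitochondrial cytochrome oxidase gene COX1 followed at 14.40 ± 0.11. The ribosomal protein genes rps20, rps14 and rpl12 had means of 14.27, 14.12 and 14.09. The gene at rank 7 was lyz, encoding the lysozyme of myeloid granules, with 14.25, 14.24, 13.93, 14.18 and 13.76 (mean 14.07 ± 0.22, SD, n = 5). Its lowest signals were on arrays 3 and 5. The ferritin heavy chain gene fth1a (13.86 ± 0.16), the actin-sequestering thymosin gene tmsb4x (13.78 ± 0.21) and the elongation factor gene eef1a1l1 (13.71 ± 0.10) also stood among the 30 brightest genes. The widely expressed genes actb2, gapdh and actb1 had means of 13.19, 13.01 and 12.84. The chemokine gene cxcl12a, whose product retains blood progenitors in their niche, stood among the 100 brightest probe sets at 12.85 ± 0.58, and its SD was the highest of that group.

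**Figure D2:**
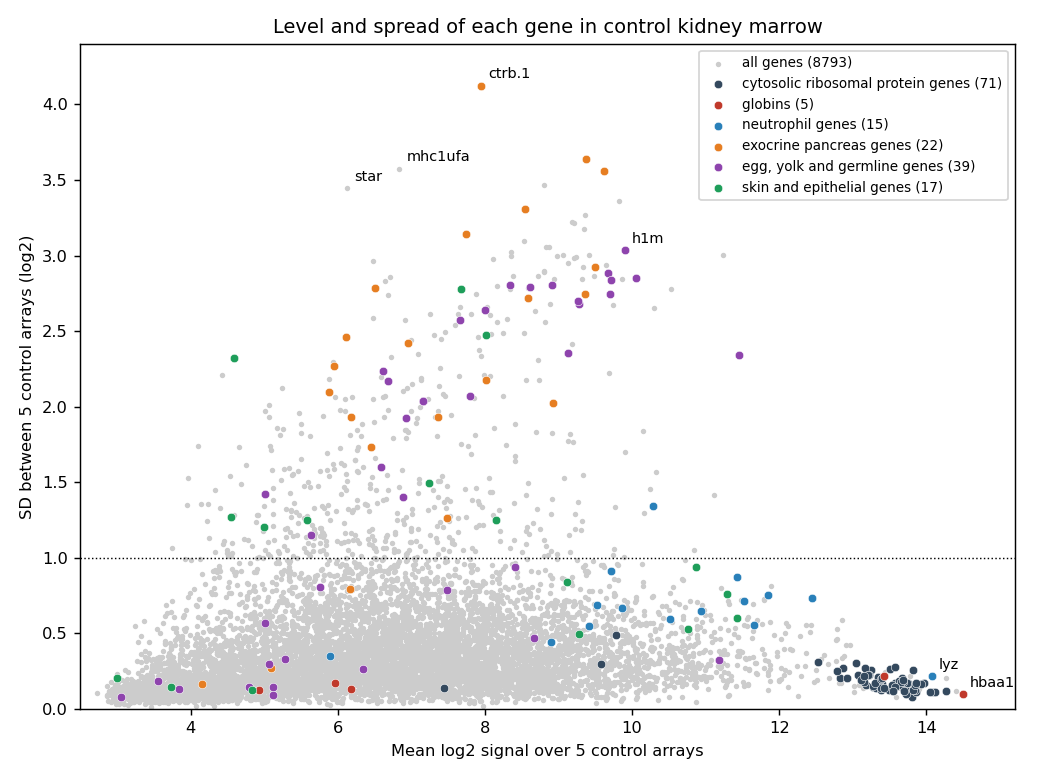
Each point is a gene, placed by its mean log2 signal (x axis) and the SD between the 5 control arrays (y axis, log2 units), and coloured by gene list. The dotted line marks an SD of 1. Ribosomal protein genes, hbaa1 and lyz lie at the bright end with a low SD, and pancreas, egg and some skin genes lie above the line.

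Besides hbaa1, the adult beta-globin gene hbba2 had signals of 13.39, 13.48, 13.13, 13.72 and 13.36 (mean 13.42 ± 0.21, SD, n = 5). The embryonic globin genes hbbe2 and hbae3 had means of 6.19 ± 0.13 and 5.96 ± 0.17, and hbbe3, at 4.94 ± 0.12, was above background on no array. Since these are different probe sets, the signals do not give the ratio of adult to embryonic globin transcripts. Of 22 erythroid genes for haem synthesis, membrane proteins and transcription factors, 19 were above background on all arrays, against 62.9% of all genes. None had an SD of 1 or more, a count near the 5.71% of all genes. The red-cell carbonic anhydrase gene cahz had a mean of 11.06 ± 0.38, the anion exchanger gene slc4a1a 10.56 ± 0.33 and the first enzyme of haem synthesis in red cells, alas2, 9.83 ± 0.28. The erythroid master regulator gata1a had 6.67, 7.43, 5.79, 6.92 and 7.10 on arrays 1 to 5, with its lowest signal on array 3. The level of the erythroid list, meaning the average log2 signal of its members, was 8.21, 8.21, 7.76, 8.36 and 8.10. Array 3 was lowest for 14 of the 22 members, against 31.8% of all genes, a pattern chosen after the values were seen. In whole tissue, fewer cells of a type and less RNA per cell cannot be told apart.

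Neutrophil genes gave, by list level, the brightest cell-type list after the genes shared by all leukocytes. This rank depends on the members listed. The globin level lay lower, as it averages the bright hbaa1 and hbba2 with the dim embryonic genes hbbe2, hbae3 and hbbe3. The brightest single probe set was that of hbaa1, a red-cell gene. All 15 measured members of the neutrophil list were above background on every array, against 62.9% of all genes. Of the 15, 13 were among the 880 brightest of 8793 genes. After lyz came cpa5, a carboxypeptidase known in zebrafish from mast cells, at 12.45 ± 0.74, the collagenase gene mmp13a at 11.84 ± 0.75 and the granule proteoglycan gene srgn at 11.66 ± 0.56. Myeloperoxidase, mpx, the defining marker of zebrafish neutrophils, had 11.37, 11.65, 10.26, 11.15 and 10.25 (mean 10.94 ± 0.65, SD, n = 5). The signals on arrays 3 and 5 lay below the other 3. The most variable member was cebp1, a zebrafish myeloid transcription factor, with 11.23, 11.48, 8.85, 11.08 and 8.80 (SD 1.34). Its signals on arrays 3 and 5 lay 2.23 or more below those on the other arrays, with no overlap. In 14 of the 15 genes arrays 1, 2 and 4 all lay above arrays 3 and 5, an order chosen after the values were seen and found in 31.2% of all genes. The list level was 10.91, 11.05 and 10.91 on arrays 1, 2 and 4, and 10 and 9.79 on arrays 3 and 5.

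Macrophage and antigen-presentation genes showed a similar but less uniform split. Of 20 members, 18 were above background on all arrays, against 62.9% of all genes. The same order of arrays was followed by 14, against 31.2% of all genes. The invariant chain genes cd74a and cd74b, which escort MHC class II molecules, had means of 12.42 ± 0.51 and 12.09 ± 0.57. The scavenger receptor gene marco had 10.89, 10.59, 8.59, 9.73 and 9.19, and the complement gene c1qc 10.89, 11.04, 9.23, 10.53 and 9.002. The lysosomal protease gene ctss2.1 ran the other way, with 11.45, 10.98, 12.87, 11.52 and 12.63, highest on arrays 3 and 5. The apolipoprotein gene apoeb was the most variable member (SD 1.74), with 11.11 on array 3 and 6.42 to 8.52 elsewhere. The growth-factor receptor gene csf1ra, a defining macrophage marker, was at or near background with a mean of 5.24 ± 0.61, above the threshold on 2 arrays. The marker mpeg1.1 had no single-symbol probe set here.

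Genes shared by all leukocytes had the highest level of the blood-cell lists, at 11.19, 11.002, 10.299, 11.11 and 10.09 on arrays 1 to 5. All 15 were above background on every array, against 62.9% of all genes. In 13 of them arrays 1, 2 and 4 lay above arrays 3 and 5, against 31.2% of all genes. The actin regulator coro1a, typical of leukocytes, had 12.50, 12.24, 10.97, 12.23 and 11.05. Cytosolic ribosomal protein genes followed the same order in 66 of 71 cases, against 31.2% of all genes. Their range of list level was much smaller (0.34, against 1.26 for neutrophil and 1.099 for pan-leukocyte genes). Under cyclic loess scaling, which forces the arrays to a common intensity trend, the ranges of the neutrophil, pan-leukocyte and macrophage lists were 0.86, 0.75 and 0.69. Arrays 3 and 5 remained the lowest for the neutrophil and pan-leukocyte levels, whereas the ribosomal level on array 3 moved from the lowest to among the highest (13.40) and the globin level on array 3 moved above those on arrays 1 and 2.

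Lymphoid and thrombocyte genes were dimmer, and few were represented by a probe set with a single symbol. Only 6 of 24 B cell genes and 7 of 27 T and NK cell genes in the lists were measured. The defining markers cd79a, cd79b, ighm, lck, zap70 and cd4-1 were not among them, so the lymphoid lists describe few genes. The plasma-cell and secretory-stress factor xbp1, which many cell types express, had 11.07 ± 0.29, and the lymphoid factor ikzf1 7.63 ± 0.57. The B cell factor pax5 was just above background at 5.37 ± 0.16, and the recombinase genes rag1 and rag2 were above background on no array. The NK-lysin gene nkl.4, encoding a pore-forming peptide of cytotoxic cells, had 9.41, 8.999, 7.54, 8.94 and 8.02. The T cell receptor alpha constant gene trac had 7.06, 6.40, 6.05, 7.44 and 5.19, and lay above background on 4 arrays. The only member of the B and T cell lists with an SD of 1 or more was eomesa, a T-box factor known from mammalian cytotoxic lymphocytes and stored in zebrafish eggs, with 7.84 and 7.45 on arrays 3 and 5 and 5.14 to 6.01 elsewhere.

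Among thrombocyte genes, the integrin gene itga2b (CD41), the standard marker of the lineage, had 4.87, 7.32, 5.94, 7.25 and 7.07 (mean 6.49 ± 1.07, SD, n = 5). It was at background on array 1. The platelet receptor gene gp1bb was above background on no array. The clotting factor genes f13a1b and f5 had means of 8.55 ± 0.69 and 7.98 ± 0.85. The factor XIII gene f13a1a.1 was high on array 2 only, at 9.83 against 6.45 to 7.64. The list level was 6.41, 6.98, 5.78, 6.42 and 6.17, and its range of 1.202 was 0.64 without array 2 and 0.81 without array 3.

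Of 22 stem and progenitor genes, 14 were above background on all arrays, against 62.9% of all genes, and none had an SD of 1 or more, against 5.71%, so both counts lay near the share of all genes. The progenitor factor myb was well above background, at 8.97, 8.88, 7.98, 8.91 and 7.78 (mean 8.50 ± 0.58, SD, n = 5). The stem-cell factor runx1 was above background on no array, at 3.93 ± 0.19, which leaves its level unmeasured by this probe set. The self-renewal gene bmi1a had the highest mean of the list, 8.99 ± 0.48, with 9.47 and 9.55 on arrays 3 and 5 and 8.57 to 8.78 elsewhere. The endothelial and blood factor fli1 had 7.67, 7.61, 5.59, 6.73 and 6.44, and gata2a 7.69, 6.66, 5.59, 7.22 and 6.86, both with the lowest signal on array 3.

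**Figure D3:**
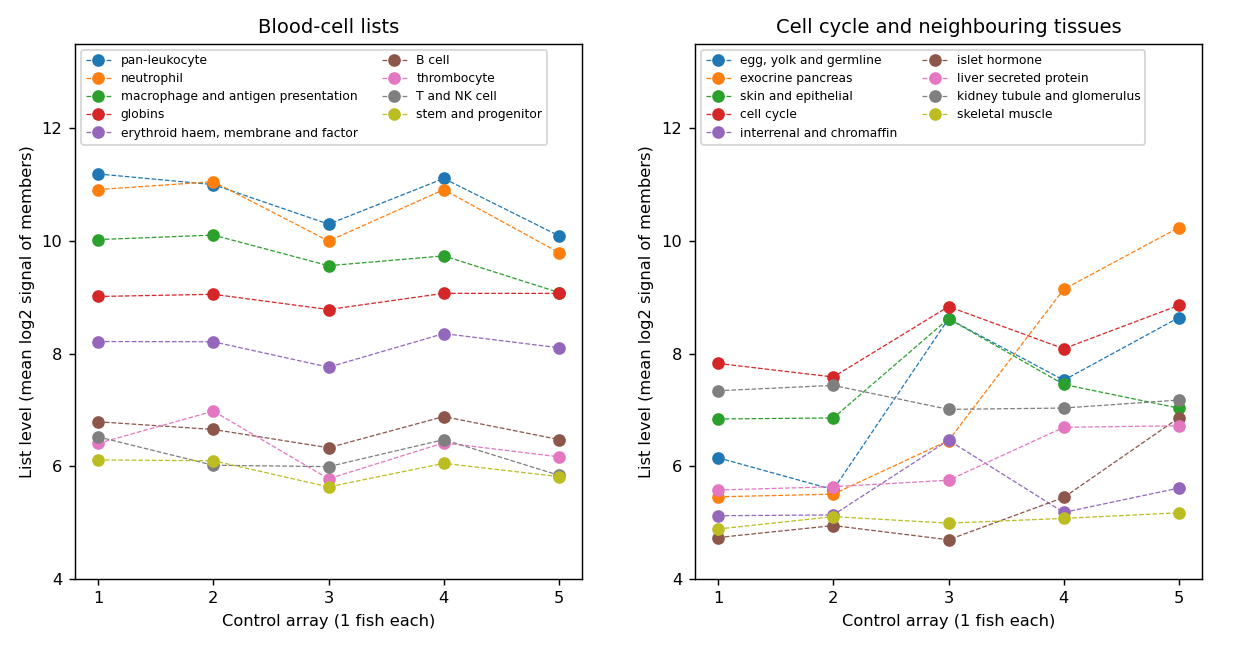
List level, the average log2 signal of the measured members of each list, on each of the 5 control arrays. Left, blood-cell lists. Right, cell cycle genes and neighbouring tissues. Dashed lines join the points of a list and imply no order of the fish. Each blood-cell level spans at most 1.26, whereas the pancreas level spans 5.46 to 10.24 and the egg level 5.58 to 8.64.

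The spread between arrays was small for most probe sets and large for few. With no repeat array of any fish, it holds differences between fish, dissection, labelling and array together. The median SD was 0.26 over all 15502 probe sets and 0.34 over those above background. Both were near the 0.30 median of the hybridisation spikes, whose SDs ran from 0.12 to 0.39, and above the 0.14 of the tag probe sets. The spikes were dimmest on array 3, which enters their SD. For a typical probe set a spread between fish was not shown, and this comparison cannot decide it. An SD of 1 or more was found for 305 of the 7978 probe sets above background on all arrays (3.82%), and for 759 of all 15502 (4.9%). By gene the share was 502 of 8793 (5.71%). An SD of 2 or more was found for 233 probe sets and of 3 or more for 46. The 100 most variable named probe sets had SDs of 2.46 and higher and represented 88 genes. Of these 100 probe sets, 12 belonged to the egg list, 11 to the pancreas list, 2 each to the cell cycle and skin lists and 1 to the interrenal list. None belonged to any blood-cell, kidney, muscle, vessel, stress or interferon list, and 72 belonged to no list. The lists are incomplete, so these counts do not rank the tissues. The oocyte gene btg4, for instance, was among the 100 and is in no list. A single array stood apart from the other 4, by Dixon's ratio of gap to range above 0.71, in 279 of the 7978 probe sets above background (3.5%), and for 111 of these it was array 3. At the limit of the 100 stood krt91, cpa1 and a2m3g just inside and cdca9 just outside.

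The variable probe sets were bright on the same few arrays. Of the 100, 69 were highest on array 3 and 29 on array 5, and 85 were lowest on array 2. To see which fish shared a transcript, the 5 signals of each probe set were sorted and the widest gap between neighbours was found. A gap of 2 or more, a 4-fold step or larger, was present in 353 of 15502 probe sets (2.28%). In 127 of these 353 the arrays above the gap were 3 and 5, in 70 they were 3, 4 and 5, in 46 array 3 alone, in 39 all but array 2, and in 27 arrays 4 and 5. Where a gene had several probe sets above background on at least 1 array, all of them peaked on the same array in 477 of 928 genes (51.4%). Among genes whose probe sets all had an SD of 1 or more the count was 23 of 30 (76.7%).

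**Figure D4:**
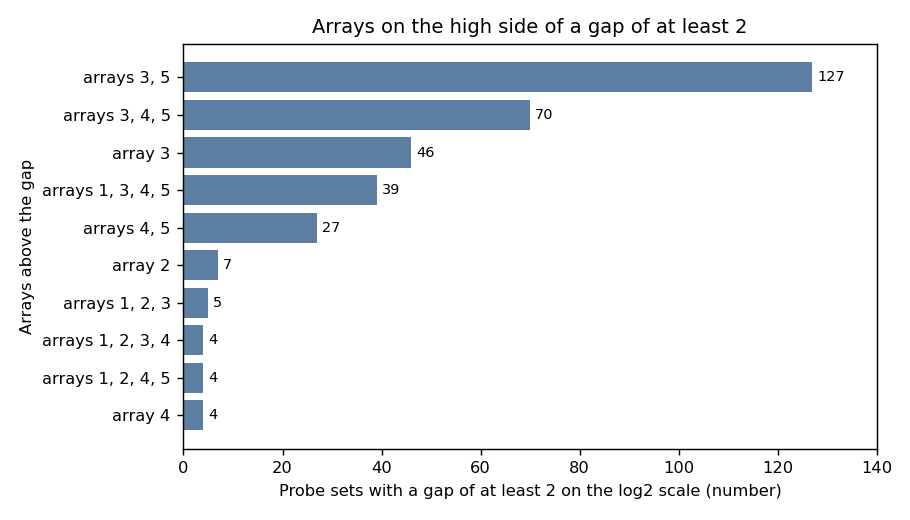
Number of probe sets (x axis) with a gap of at least 2 on the log2 scale, by the arrays on the high side of the gap (y axis), for the 10 most frequent sets of arrays. Arrays 3 and 5 together account for 127 of 353, and array 2 alone for 7.

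Egg and germline transcripts were among those bright on arrays 3 and 5. Of 39 measured members of the egg, yolk and germline list, 24 had an SD of 1 or more, against 5.71% of all genes. Above background on all arrays were 16 of the 39, against 62.9% of all genes. The oocyte linker histone gene h1m had 7.49, 5.95, 12.54, 10.89 and 12.64 on arrays 1 to 5. The egg envelope gene zp3a.1 had 8.47, 5.94, 12.66, 10.67 and 12.50, and zp2.6, another envelope gene, 9.89, 8.16, 13.46, 12.42 and 13.37. The maternal factor zar1, needed for the oocyte-to-embryo transition, had 7.07, 6.03, 12.07, 9.64 and 11.59. All 4 genes were highest on arrays 3 and 5, intermediate on array 4, lower on array 1 and lowest on array 2, and all were above background on each array, array 2 included. Arrays 3 and 5 above array 4, with array 4 above arrays 1 and 2, was the order of 26 of 39 list members, against 15.1% of all genes. It was chosen after the values were seen.

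The orders of the yolk protein genes differed. The vitellogenin gene vtg2, which is made in the liver and taken up by oocytes, had 5.51, 5.76, 9.63, 10.89 and 11.31, and vtg4 4.39, 4.14, 7.24, 9.02 and 8.29. The related gene vtg3 had 4.62, 6.94, 6.84, 7.78 and 8.27, with array 2 about level with array 3. Signals of vtg4 on arrays 1 and 2, and of vtg3 on array 1, were at background. Array 4 lay above array 3 for these 3 genes and below it for zp3a.1 and zp2.6. The vitellogenin genes were named after their values were seen. The claudin gene cldng, which belongs to the same list, was steady at 11.18 ± 0.32. The list level was 6.15, 5.58, 8.62, 7.53 and 8.64.

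Other highly variable genes kept the egg order without being in a list. Among the 25 most variable named genes, the cell-cycle brake of oocytes btg4 had 6.9997, 5.05, 11.52, 9.69 and 11.44, the thymosin gene tmsb5 8.24, 4.52, 11.77, 9.94 and 11.59, and the calcium-binding protein gene s100a1 5.57, 4.50, 10.95, 8.64 and 10.86. On array 2 btg4, tmsb5 and s100a1 were at background. In tmsb5 and the brighter probe set of the envelope gene zp3.1 the widest gap fell between array 2 and the other 4. In the other probe set of zp3.1 it fell between array 1 and array 4, with arrays 3, 4 and 5 above it.

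Cell cycle genes divided into a steady and a variable part. Of 49 members 43 were above background on all arrays, against 62.9% of all genes. An SD of 1 or more was found for 13, against 5.71% of all genes. The replication clamp gene pcna was among the steadiest of all, at 11.25, 11.34, 11.19, 11.35 and 11.39 (mean 11.31 ± 0.08, SD, n = 5). The chromatin protein gene hmgb2a had 11.87 ± 0.26. The most variable members were birc5b, a survivin gene of the dividing spindle, with 6.54, 4.68, 10.64, 7.80 and 10.65, the mitotic cyclin gene ccnb2 with 6.37, 5.79, 11.21, 8.41 and 10.84, and ccna1, a germline cyclin in mammals, with 7.28, 5.80, 10.81, 9.09 and 10.68. These 3 had the order of the egg genes, as had 22 of the 49 members, against 15.1% of all genes. The cell cycle level was 7.83, 7.58, 8.84, 8.09 and 8.86, highest on the arrays on which the egg level was highest, and the part of egg transcripts in it was not tested.

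Digestive enzyme genes of the exocrine pancreas had the widest range of any list. Of 22 members, 19 had an SD of 1 or more, against 5.71% of all genes. Only 10 of the 22 were above background on all arrays, against 62.9% of all genes. The chymotrypsinogen gene ctrb.1 was the most variable named gene, with 3.89, 3.95, 7.69, 11.51 and 12.72 on arrays 1 to 5. It was at background on arrays 1 and 2. The elastase gene cela1.6 had 6.01, 6.56, 8.90, 12.87 and 13.76, the trypsinogen gene prss1 5.59, 6.002, 9.24, 12.33 and 13.69, and the amylase gene amy2a 4.78, 5.12, 6.68, 10.60 and 11.56. Array 5 above array 4, above array 3, above arrays 1 and 2 was the order of 17 of the 22 members, against 1.01% of all genes, an order chosen after the values were seen. The level was 5.46, 5.50, 6.46, 9.14 and 10.24.

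Islet hormone and liver genes shared the high signals of arrays 4 and 5 in part. Insulin, ins, had 5.62, 6.71, 6.18, 7.94 and 10.83, glucagon, gcga, 5.18, 5.12, 4.61, 5.62 and 7.45, and somatostatin, sst2, 4.69, 4.70, 4.45, 5.76 and 6.96. All 3 were highest on array 5, and gcga and sst2 were above background on arrays 4 and 5 only. The range of the islet list was 2.17, and 0.75 without array 5. Of its 6 genes 1 was above background on all arrays, against 62.9% of all genes. Among 24 genes for liver-secreted proteins 5 had an SD of 1 or more, against 5.71% of all genes. In 15 of the 24 array 5 lay above array 4 and array 4 above the other 3, against 2.6% of all genes. This order was chosen after the values were seen. Above background on all arrays were 9 of the 24, against 62.9% of all genes, so the order also ranks signals at background. The apolipoprotein gene apoa1a had 5.48, 6.95, 7.77, 10.21 and 8.90, and the transferrin gene tfa 7.17, 6.46, 8.30, 9.92 and 10.19. Haptoglobin, hp, which binds free haemoglobin, went the other way with 12.08, 10.86, 9.89, 11.12 and 9.66. The liver fatty-acid carrier gene fabp10a was well above background on every array, at 9.60, 9.06, 7.75, 9.66 and 9.78.

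Several skin and epithelial genes were far brighter on array 3 than on any other array. Of 17 skin and epithelial genes 8 had an SD of 1 or more, against 5.71% of all genes. Of the 17, 8 were at least 1 higher on array 3 than on every other array, against 1.05% of all genes. This pattern was chosen after the values were seen. The basal keratin gene krt5 had 5.51, 5.23, 12.07, 8.45 and 7.13, krt91 5.84, 6.37, 12.10, 8.32 and 7.47, and the claudin gene cldni 3.33, 3.57, 8.71, 4.09 and 3.26. The keratin genes were next brightest on array 4, while cldni was above background on array 3 only. The simple-epithelium keratins krt8 and krt18a.1, which tubules also express, were bright on all arrays, at 11.43 ± 0.60 and 10.76 ± 0.53, and not highest on array 3. The range of the list level was 1.78, and 0.61 without array 3.

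The steepest single difference was that of star, whose product carries cholesterol into mitochondria for steroid synthesis. It had 5.24, 4.39, 12.25, 4.51 and 4.23, above background on array 3 only, 7.01 above the next array. The side-chain cleavage enzyme gene cyp11a1.1 had 4.23, 4.01, 8.70, 4.71 and 7.75, and cyp17a1 4.16, 3.57, 7.45, 4.39 and 5.97, so both were above background on arrays 3 and 5 and on no other. Gonads as well as interrenal tissue make these enzymes. The electron donor gene fdx1, used by many mitochondrial enzymes, was bright on every array at 10.01 ± 0.44. Of the 13 interrenal and chromaffin genes, 6 were above background on no array. Over all features the count was 5053 of 15502 by probe set, not by gene, so it is not a like comparison. The range of the list level was 1.34, or 0.49 without array 3.

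Other transcripts of array 3, named after their values were seen, included the acute-phase gene saa, with 7.94 against 4.51 to 4.62, and the itaconate synthase gene irg1l, with 8.89 against 3.91 to 5.36. The prostaglandin D synthase genes ptgdsb.1 and ptgdsb.2 had 12.19 and 10.27 on array 3, against 6.62 to 8.67 and 5.398 to 6.07. The annexin gene anxa1b had 7.197 against 3.197 to 3.57. Array 3 also had the dimmest hybridisation spikes and the lowest tag signals, and the part of array quality in these values was not tested.

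Genes of the major histocompatibility complex (MHC), which presents peptides to T cells, did not share 1 pattern. Only mhc1ufa and mhc1uda divided the fish alike. Of 9 MHC genes with a probe set, 3 had an SD of 1 or more, against 5.71% of all genes. Above background on no array were 3 of the 9. Over all features the count was 5053 of 15502 by probe set, not by gene, so it is not a like comparison. The class I gene mhc1ufa had 10.82, 3.77, 4.54, 10.65 and 4.39. It was bright on arrays 1 and 4 and at background on the other 3, with a gap of 6.11. The class I gene mhc1uda divided the fish in the same way, with 7.27, 3.98, 3.76, 6.63 and 3.82. A second probe set of mhc1uda, above background on no array, also had its highest signals on arrays 1 and 4 (3.98 and 3.84, against 2.78 to 2.88). Both symbols are those of the platform annotation, since neither gene has an entry of its own in the RefSeq gene table used for names.

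The remaining MHC genes did not share that division. The class II gene mhc2daa had 7.92, 6.78, 5.65, 3.42 and 3.62, at background on arrays 4 and 5. The class I gene mhc1zba, by contrast, was bright in every fish, with 10.61, 10.63, 9.96, 10.43 and 9.71, and mhc1uka was above background on none. The class I light chain gene b2m was steady at 12.03 ± 0.27. Immunoproteasome and loading genes that neighbour other class I genes in that table did not follow mhc1ufa. Since mhc1ufa has no entry there, its position relative to them could not be read from that table. The proteasome subunit gene psmb8a had 8.87, 8.50, 7.48, 8.60 and 7.47, and tapbp.1 8.04, 7.74, 7.42, 7.79 and 7.45, with arrays 1, 2 and 4 the brightest for both. The MHC genes other than mhc1ufa, mhc1zba, b2m and psmb8a were named after their values were seen.

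**Figure D5:**
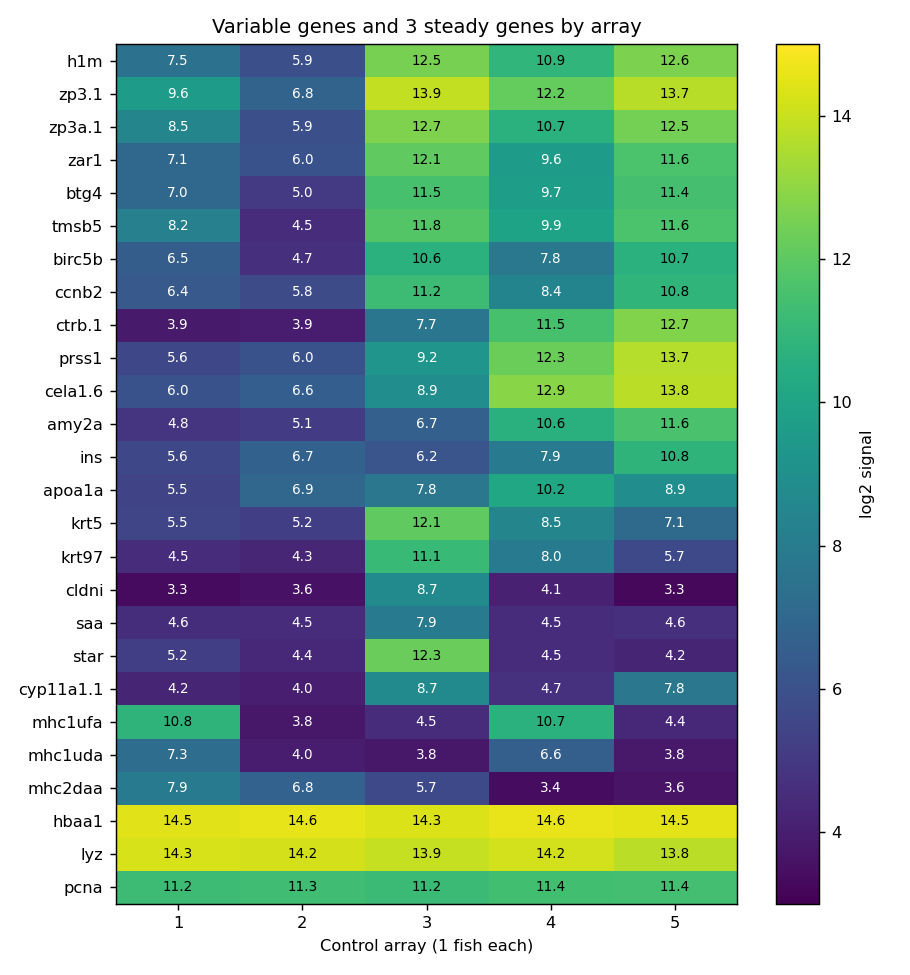
Log2 signal (colour and printed value) of 23 variable genes and of the steady genes hbaa1, lyz and pcna on the 5 control arrays. Egg genes are bright on arrays 3, 5 and 4, pancreas genes on arrays 5 and 4, star on array 3 alone, and mhc1ufa on arrays 1 and 4.

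Array 2, the array with the lowest egg level, stood highest for a small group of vessel and stroma genes. The chemokine gene cxcl12b had 7.09, 9.34, 6.88, 7.33 and 6.09, the smooth-muscle actin gene acta2 6.88, 9.33, 7.22, 7.97 and 7.58, and podxl, a gene of podocytes and endothelium, 7.57, 9.11, 7.36, 7.96 and 7.29. The retinoic acid-degrading enzyme gene cyp26b1, named after its values were seen, had 9.86 on array 2 and 6.61 to 7.77 elsewhere. In 7 of 15 vessel and stroma genes array 2 was highest, against 27.0% of all genes, a pattern chosen after the values were seen. The endothelial receptor gene kdrl had 9.41, 9.70, 7.91, 8.83 and 8.67. The range of this list was 0.99, and 0.62 without array 2.

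Array 5 was lowest for 13 of 20 macrophage, 11 of 15 neutrophil and 11 of 15 pan-leukocyte genes, and 2 of 39 egg genes. The share over all genes is not given here. A pair of genes with array 5 below a gap of 2 or more was named after their values were seen. The cathepsin B gene ctsba had 11.28, 10.36, 11.49, 10.29 and 7.83, and the transcobalamin gene tcnbb 10.34, 9.70, 8.46, 10.77 and 6.36. Array 5 lay below all other arrays in both.

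Renal tubule transcripts were measured in all 5 fish. Of 33 kidney genes 22 were above background on every array, against 62.9% of all genes, and 2 had an SD of 1 or more, against 5.71%, so both counts lay near the share of all genes. The tubule cadherin gene cdh17 had 11.19, 11.53, 10.38, 10.76 and 10.58, the sodium pump subunit gene atp1a1a.4 11.60, 11.54, 11.04, 10.46 and 11.0015, and the sodium-chloride cotransporter gene slc12a3 of the distal tubule 9.60, 9.75, 9.05, 8.54 and 8.89. A second sodium pump subunit gene, atp1a1a.3, had 8.30, 7.97, 7.08, 6.74 and 8.96. The members with an SD of 1 or more were the water and glycerol channel gene aqp3a, with 8.39 on array 3 and 6.46 on array 4 and at background elsewhere, and ddc, a decarboxylase that makes dopamine and serotonin, with 5.03 to 7.54. The range of the kidney list was 0.43.

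Most skeletal muscle transcripts were at or near background. Of 30 muscle genes 17 were above background on no array, and 4 on all arrays, against 62.9% of all genes. Above background on no array were 5053 of all 15502 probe sets. That count is by probe set, not by the brightest probe set of each gene, so it is not a like comparison. None had an SD of 1 or more, a count near the 5.71% of all genes. The brightest was eno3 at 11.31 ± 0.19, a glycolytic enolase. The muscle-defining genes ckma, mylpfa and tnnt3b had means of 5.78 ± 0.39, 5.56 ± 0.28 and 5.38 ± 0.23, close to the tag threshold. The muscle actin gene actc1b and the creatine kinase gene ckmb were above background on all arrays, with 6.38, 7.01, 7.003, 7.05 and 7.34 and with 5.69, 6.71, 6.97, 6.71 and 7.22. Both were lowest on array 1. The muscle level lay between 4.88 and 5.17 on the 5 arrays.

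Immediate-early genes, which respond quickly to handling and stress, and interferon-response genes were also listed. None of 51 immediate-early and stress genes and none of 17 interferon-response genes had an SD of 1 or more, counts not far from the 5.71% of all genes. Arrays 1, 2 and 4 all lay above arrays 3 and 5 in 27 of the 51 and in 10 of the 17, against 31.2% of all genes. The stress-list levels lay between 7.04 and 7.37 and the interferon levels between 6.98 and 7.35. The brightest stress genes were txnipa, a regulator of thioredoxin and glucose uptake, at 11.70 ± 0.23, igfbp1a, a growth-factor binding protein of fasting, at 10.34 ± 0.46, and btg1 at 10.06 ± 0.32. The most variable were ddit4, an inhibitor of mTOR signalling, with 4.04, 3.46, 5.43, 4.54 and 5.80, and btg2, with 7.93, 6.94, 9.20, 8.02 and 8.74. Both were highest on arrays 3 and 5. The 19 housekeeping genes had a level between 11.04 and 11.28, and the 71 listed ribosomal protein genes one between 13.13 and 13.47.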

How the data were processed

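Per the labels' protocols, total RNA of kidney marrow was extracted with Trizol and turned into biotin-labelled cRNA with Affymetrix's 3′ IVT Express kit, and it was hybridised to Affymetrix zebrafish arrays. The deposited table, made by the authors, holds log2 signals for 15617 probe sets. The log2 unit was read from the values, while how probes were summarised and arrays normalized is, for the sources used here, not given. Of the 10 arrays, the 5 controls were used as deposited. After 115 Affymetrix control probe sets were set aside, symbols came from the platform annotation, updated by gene ID through a RefSeq table (assembly GRCz12tu) that served for symbols and gene neighbours. A single symbol named 10795 probe sets, 10711 through the ID and 84 by the annotation as it stood, while 135 had several and 4572 none. The probe set with the highest mean stood for each of 1539 genes with several.

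Means, SDs, widest gaps and list levels were computed with Python 3.11.15 and pandas 2.3.3, and the calculations were tested on simulated data. A probe set counted as above background where it exceeded the brightest of 17 tag-sequence probe sets of the same array. Alternatives were other background thresholds, filters, spread measures and probe set rules, quantile, median and cyclic loess scaling (limma 3.58.1 in R 4.3.3), and leaving out each array. Leaving out arrays 3, 4 and 5 together was added after seeing the data. Genes named were among the 25 brightest and 25 most variable, up to 4 brightest and 3 most variable of each of 23 lists, and fixed cell type markers and anchors, with clone names passed over. Exceptions are stated. The members and lists were chosen with earlier results of these data known.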

Additional observations from a re-analysis of the deposited data

Results flagged for a closer look

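For 9 of the 170 named genes and 1 of 23 lists, a single array stood apart from the other 4, by Dixon's ratio of the gap to the whole range above 0.71 for 5 samples. By chance about 1 in 20 groups would do so, and 3.5% of probe sets above background on all arrays did. Neither share is a like base for the 9 genes. Of these, saa, ptgdsb.2 and anxa1b were named after their values were seen, and why jac4 and crip2l were named is not given here. In addition, star, cldni, saa, anxa1b, jac4 and crip2l were not above background on all 5 arrays. Whether the count exceeds chance was therefore not tested. No cause was tested for any of them.

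Array 3 was the one that stood apart in 8 of the 10. It was high for star at 12.25, for ptgdsb.2 at 10.27, for cldni at 8.71, for saa at 7.94, for anxa1b at 7.197 and for jac4 (6.70, against 3.19 to 3.39 on the other arrays). It was low for the red-cell membrane gene epb41b (7.98, against 8.91 to 9.28) and for the globin level (8.78, against 9.01 to 9.07), a difference that turned under cyclic loess scaling. That level averages hbaa1 and hbba2 with dim embryonic globin genes, of which hbbe3 was above background on no array. The tag signals were also lowest on array 3.

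Array 2 was high for crip2l, at 7.19 against 4.70 to 5.09. Array 5 was low for the thymosin gene tmsb1, at 11.43 against 12.43 to 12.59.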

How the results depend on the processing

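No paired analysis was possible because only the control group was described and nothing was compared between groups. The count of 7978 probe sets above background became 4252 with the brightest unspiked control as threshold. The 305 with an SD of 1 or more became 759 without a filter, 536 with a mean of at least log2 6, and 117 on arrays 1 and 2 alone, a choice made after seeing the data. Of the 100 most variable, 36 were shared when they had to be above background on all arrays, and 38 on arrays 1 and 2 alone. The number of lists with a range of 1 or more was 11, and 0 on those 2 arrays. Leaving out each array gave 8009 to 8211 above background, 247 to 438 with an SD of 1 or more, 98 to 100 of the brightest and 75 to 97 of the most variable shared, and 8 to 11 lists. In all, 47 of the alternative values for these 5 results stayed within 1.5 times. Without array 5 the macrophage and pan-leukocyte ranges were 0.54 and 0.89. The cause of these changes was not tested beyond the fewer probe sets or arrays they hold.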
